A study of Mus musculus with 3143 samples.

Results

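The 10 genes described here encode collagen chains: Col1a1 and Col1a2 of type I, Col3a1 of type III, Col5a1 and Col5a2 of type V, Col6a1, Col6a2 and Col6a3 of type VI, Col8a1 of type VIII and Col15a1 of type XV. They were taken by symbol, each from its own row, and make up 10 of the 46517 gene rows of the count table. The name fibrillar fits types I, III and V, and the name microfibrillar fits type VI. Type VIII, a short chain that assembles into networks, and type XV, a basement membrane collagen that carries sugar chains, belong to neither kind.

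The cells came from the glomerular fraction of kidneys of adult C57BL/6 mice, digested with collagenase IV, pronase E and DNase I. Cells positive for CellTracker, a dye of living cells, were sorted 1 per well and read by Smart-seq2, which sequences full-length polyadenylated RNA without molecular identifiers. The IgAN group, labelled with the abbreviation of IgA nephropathy, held 1798 cells from 6 plates (313, 315, 316, 318, 322 and 325). The Control group held 1345 cells from 4 plates (314, 317, 321 and 326). The labels do not say how IgAN was brought about, name no animal, and give strain, age class and digestion alike for both groups. Each group was therefore 1 sample, no p-value was computed, and the spread between plates stands in for replicate error. Every plate held 1 group alone, and an effect of plate cannot be told apart from one of group.

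Cells carried 50365 to 1135415 reads, with a median of 231222 in IgAN and 241543 in Control. Levels are CPM, the reads of a gene summed over the cells of a class per 1000000 reads of all genes in them, with an exact Poisson 95% interval that covers counting error only. Clusters were built without the 10 collagens and named from markers, so a name such as mesangial-like rests on genes such as Pdgfrb and Itga8. The mesangial-like class held 115 IgAN and 51 Control cells, the podocyte-like class 39 and 146, the endothelial-like class 1011 and 615, the parietal epithelial-like class 49 and 24, and the class like smooth muscle or renin cells 21 and 11. Tubule-like and leukocyte-like cells were also present in this glomerular fraction, and no cluster was named fibroblast-like. Class sizes differed between groups, and so did those of the endothelial-like clusters, which are given with Col15a1.

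Collagens are trimers of chains wound around each other. Types I and III form the banded fibrils of interstitial scar, and type V sits inside type I fibrils and sets their width. Type VI is put together from different chains inside the cell and builds beaded filaments around cells. In a healthy glomerulus the basement membrane is made of type IV, and fibrillar collagens are sparse. The mesangial cell, a contractile cell between the capillary loops, is the one known best for laying down matrix when the glomerulus scars.

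The 10 genes fell into different cell classes. Col6a1 and Col6a2 lay almost wholly in parietal epithelial-like cells, which held 95.7% and 93.5% of their reads but were 2.32% of the cells. Col6a3, the third chain of the same collagen, had 94.8% of its reads in mesangial-like cells, 5.28% of the cells. The mesangial-like class also held 81.3% of the reads of Col8a1, 71.2% of Col3a1 and 64.3% of Col5a1. Endothelial-like cells, 51.7% of all cells, held 91.5% of the reads of Col15a1 and 53.1% of Col5a2, with 34.2% of Col5a2 in mesangial-like cells. The type I chains were spread over more classes: 56.4% of Col1a1 reads lay in parietal epithelial-like and 23.2% in mesangial-like cells, whereas 37.1% of Col1a2 reads lay in podocyte-like, 25.3% in mesangial-like and 18.2% in parietal epithelial-like cells.

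**Figure D1:**
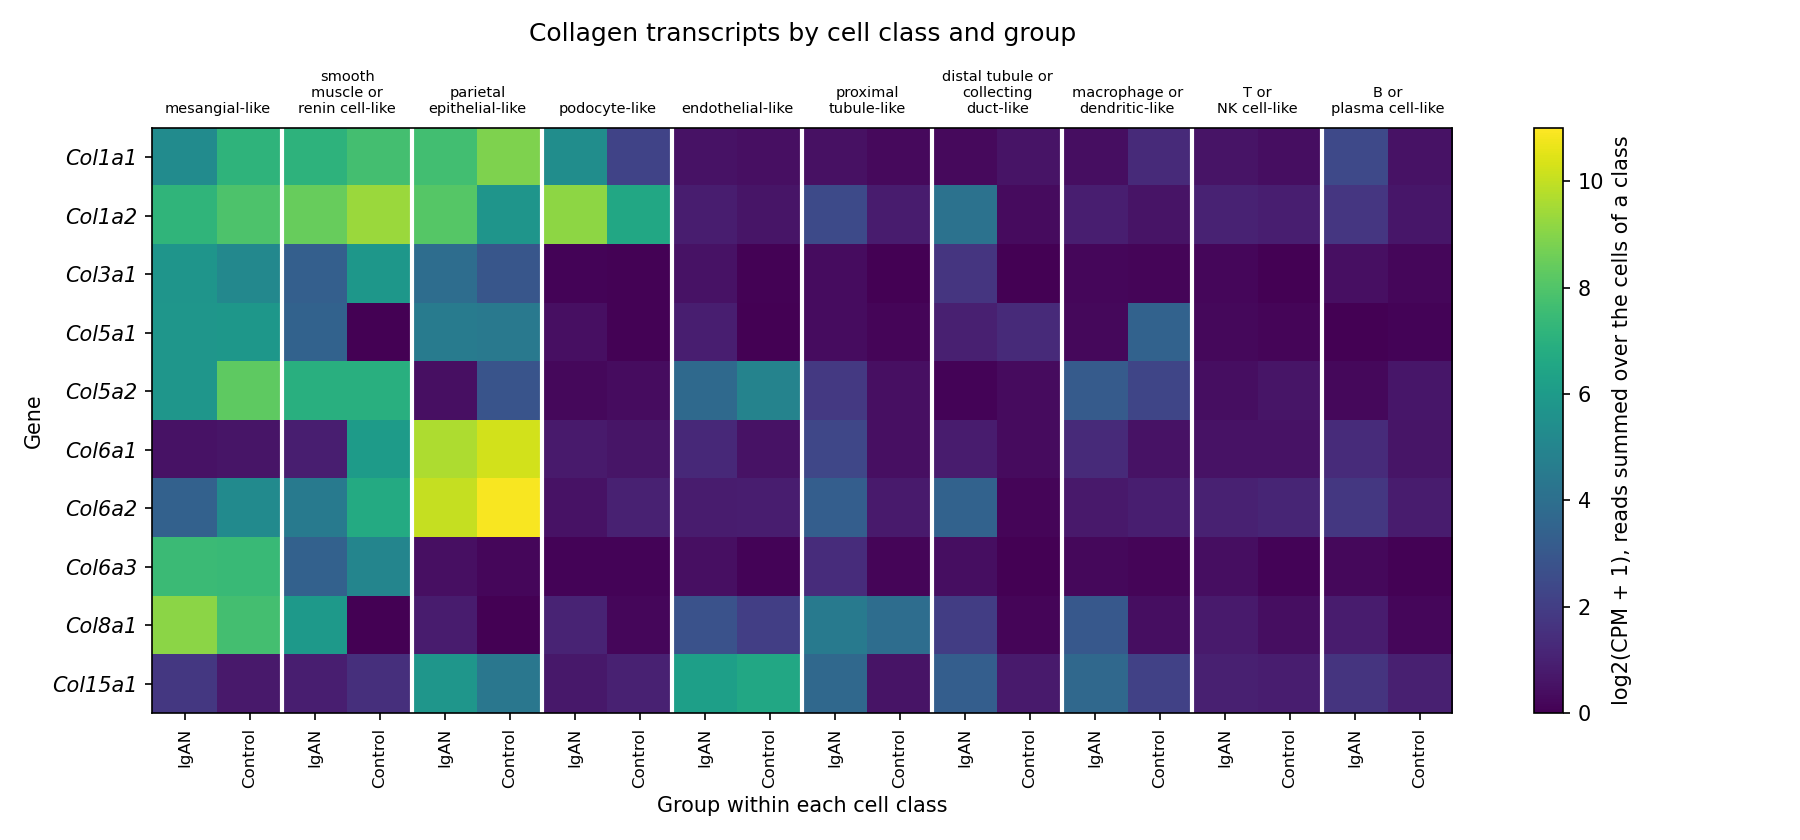
Heat map of the level of the 10 collagen genes (rows, log2 of CPM plus 1) in 10 cell classes (columns, IgAN at the left and Control at the right of each pair), with reads summed over the cells of a class and group. Col6a1 and Col6a2 are bright in the parietal epithelial-like columns, Col6a3 and Col8a1 in the mesangial-like columns and Col15a1 in the endothelial-like columns.

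Lymphocytes, which should not make these collagens, give the background of carried-over RNA. Over both groups, the highest level of any of the 10 genes was 1.11 CPM (Col6a2) in the 219 T or NK cell-like cells and 1.18 CPM (Col1a1 and Col15a1) in the 143 B or plasma cell-like cells. By group it was 1.06 CPM (Col1a2) in IgAN and 1.19 CPM (Col6a2) in Control T or NK cell-like cells. In B or plasma cell-like cells it was 4.41 CPM (Col1a1, 23 reads in 26 cells) in IgAN and 0.962 CPM (Col15a1) in Control. The highest levels were thus close in T or NK cell-like cells and unlike in B or plasma cell-like cells. Of the 26 IgAN cells of the latter class, only 1 reached 10 CPM of Col1a1. The background cannot be taken as alike in the groups. A single read is a poor sign of expression for the more abundant members: 16.0% of T or NK cell-like and 14.0% of B or plasma cell-like cells had a read of Col6a2, and 17.4% and 18.2% had a read of Col15a1. For Col3a1 the same shares were 0.913% and 2.80%. Shares below therefore count cells with at least 10 CPM of a gene unless stated otherwise. This limit does not remove the background, because in the cells with fewest reads, from 50365, a single read already reaches 10 CPM. At that limit 13 of 219 T or NK cell-like and 4 of 143 B or plasma cell-like cells had a type VI chain. The exact binomial intervals given with shares treat cells as independent and leave out the spread between plates. Intervals of IgAN and Control that lie apart are therefore not a test of the groups.

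The comparison that the labels imply is IgAN against Control within a cell class. A gene counts as measured in a class when it reached 10 CPM and had a read in 10% of the cells in 1 group. It is called higher or lower by a size rule: a log2 difference, IgAN minus Control with 1 CPM added to both, of at least 1, and no overlap between IgAN and Control plates with at least 10 cells of the class. A class was compared only if at least 3 plates of each group held that many cells. By this rule 1 of the 8 members measured in mesangial-like cells, Col5a2, was lower in IgAN and 0 were higher, against a background of 1.49% lower and 1.26% higher among the 10160 genes measured there. In endothelial-like cells 0 of 2 measured members were called, with 0.754% of genes higher and 0.723% lower in the background. In proximal tubule-like cells 1 of 2, Col15a1, was higher and 0 were lower, with 6.39% of genes higher and 2.11% lower in the background. Col15a1 reached 10 CPM there in IgAN alone (12.1 CPM against 0.480 CPM in Control), so passing the filter already fixed its direction. In macrophage or dendritic-like cells 0 of 1 was called, with 0.737% higher and 0.454% lower. T or NK cell-like cells were compared as well, with 0 members measured, and 0.447% of genes higher and 1.29% lower. The median log2 difference of the 8 members in mesangial-like cells was -0.39, and that of all measured genes 0.02.

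The type I chains come first. Col1a1 (chr11:94936224-94953042, plus strand, GRCm38 and GENCODE vM21 throughout) encodes the alpha 1 chain, of which a type I trimer normally holds more than of the alpha 2 chain of Col1a2 (chr6:4504814-4541544, plus strand). Few cells held both transcripts. At 10 CPM or more, 35 cells had both, 52 had Col1a1 alone and 187 had Col1a2 alone. The 35 cells with both were 24 of IgAN and 11 of Control, the 52 with Col1a1 alone were 26 and 26, and the 187 with Col1a2 alone were 126 and 61.

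In mesangial-like cells Col1a1 rested on a handful of cells. Its level was 38.5 CPM in IgAN and 140 CPM in Control, a log2 difference of -1.84, but only 4 of 115 IgAN and 6 of 51 Control cells reached 10 CPM, and the 5 richest cells held 99.6% of the IgAN and 99.7% of the Control reads. IgAN plates 313, 315, 316, 318, 322 and 325 had 0.151, 0.252, 231, 12.9, 0 and 0.307 CPM, against 153, 0.233, 311 and 247 CPM on Control plates 314, 317, 321 and 326, where plate 321 held 4 mesangial-like cells. The plates of the groups overlapped, with 1 high IgAN plate and 1 near-empty Control plate.

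Col1a2 was found more widely there. It stood at 145 CPM in IgAN and 244 CPM in Control, and 41 of 115 cells of IgAN (35.7%, exact binomial 95% interval 26.9 to 45.1) against 24 of 51 of Control (47.1%, 32.9 to 61.5) reached 10 CPM. IgAN plates in the same order had 146, 158, 172, 118, 217 and 49.8 CPM, and Control plates 296, 134, 473 and 259 CPM. The log2 difference of -0.75 stayed under the limit of 1, and Control plate 317 lay inside the IgAN range. Without plate 317 the difference was -1.03 and the plates no longer overlapped, and without the 5 richest cells of the class it was -0.23.

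Podocyte-like cells, the filtering epithelium of the glomerulus, carried Col1a2 with little Col1a1. Col1a2 was at 567 CPM (553 to 581) in IgAN and 96.4 CPM (93.6 to 99.4) in Control, and 26 of 39 IgAN cells (66.7%, interval 49.8 to 80.9) against 22 of 146 Control cells (15.1%, 9.69 to 21.9) reached 10 CPM. The class could not be compared by the size rule, because only 2 IgAN plates held 10 of these cells: plate 313 with 248 CPM in 15 cells and plate 316 with 315 CPM in 10 cells. The smaller IgAN plates 315, 318, 322 and 325 had 1937, 929, 772 and 2.54 CPM in 2, 6, 3 and 3 cells. Control plates 314, 317, 321 and 326 had 4.60, 266, 198 and 5.32 CPM in 46, 27, 26 and 47 cells.

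The Control plates thus fell into a pair near 5 CPM and a pair at 198 and 266 CPM, the higher of which lay above IgAN plate 313. Of the podocyte-like cells with a type I chain at 10 CPM, 46 had Col1a2 alone (24 IgAN, 22 Control), 2 had both (2 and 0) and 2 had Col1a1 alone (0 and 2). Col1a1 stood at 40.9 and 3.65 CPM, with 100% of the IgAN and 96.3% of the Control reads in 5 cells. Markers of other classes were present in podocyte-like cells: the summed level of the mesangial list was 314 CPM in IgAN and 294 CPM in Control, that of the smooth muscle or renin cell list 146 and 21.8 CPM, and that of the endothelial list 2961 and 3792 CPM. In cells that carried no other main class, those whose endothelial and mesangial markers stayed under 25% of the level typical of those classes, Col1a2 was at 478 CPM in 34 IgAN cells and 100 CPM in 84 Control cells.

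Parietal epithelial-like cells, which line the capsule around the glomerulus, had the reverse balance of the type I chains between groups. Col1a1 was at 201 CPM in IgAN and 463 CPM in Control, with 12 of 49 and 12 of 24 cells at 10 CPM. Col1a2 was at 277 CPM in IgAN and 52.3 CPM in Control, with 18 of 49 and 4 of 24 cells. The 5 richest cells held 82.0% of the IgAN and 70.2% of the Control reads of Col1a1, and 53.4% and 100% of those of Col1a2. Only 3 IgAN plates and 0 Control plates held 10 cells of this class, so neither difference was called. Per kilobase of exon and over both groups, the level of Col1a1 was 43.1 CPM per kb in parietal epithelial-like and 24.4 CPM per kb in smooth muscle or renin cell-like ones, and that of Col1a2 16.6 and 36.5 CPM per kb. Exon length here and below joins the exons of all annotated transcripts of a gene (6563 bases for Col1a1, 12426 for Col1a2). It can exceed the length of the RNA made, so values per kilobase compare different genes only roughly. In smooth muscle or renin cell-like cells Col1a1 was at 136 CPM in IgAN and 206 CPM in Control and Col1a2 at 351 and 655 CPM, with no plate that held 10 of these cells.

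**Figure D2:**
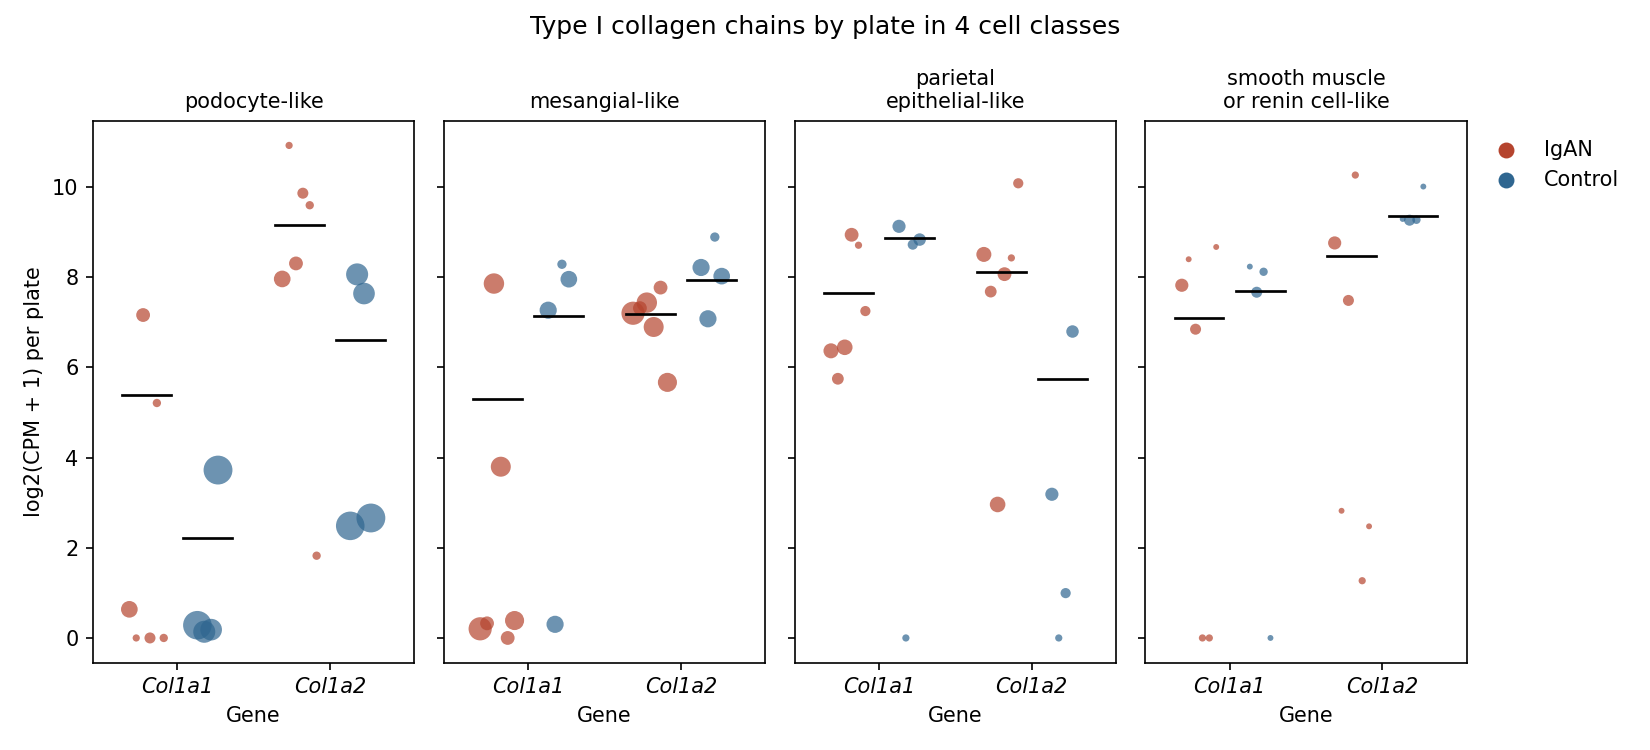
Level of Col1a1 and Col1a2 (log2 of CPM plus 1) on each plate in podocyte-, mesangial-, parietal epithelial- and smooth muscle or renin cell-like classes, IgAN at the left of Control. Each dot is 1 plate, its area grows with the number of cells, and the line is the level summed over the group. In podocyte-like cells the larger dots of IgAN lie at 248 and 315 CPM of Col1a2, and those of Control at 4.60 and 5.32 CPM and at 198 and 266 CPM.

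The fibrillar chains Col3a1 and Col5a1 were rare. Col3a1 (chr1:45311538-45349706, plus strand), whose homotrimer accompanies type I in soft tissue, reached 10 CPM in 41 cells, and Col5a1 (chr2:27886425-28039514, plus strand), the type V alpha 1 chain that starts fibrils, in 49 cells. No cell had both. In mesangial-like cells Col3a1 was at 51.8 CPM in IgAN and 34.3 CPM in Control, with 16 of 115 and 4 of 51 cells at 10 CPM. IgAN plates had 27.6, 52.6, 22.5, 77.9, 0 and 158 CPM and Control plates 0, 38.9, 0 and 74.8 CPM, so the groups overlapped widely. The direction of the difference of 0.58 (log2) depended on few cells: without cells that carried another main class the levels were 31.1 CPM in IgAN and 35.5 CPM in Control, and without the 5 richest cells of the class the difference was -0.25.

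Col5a1 stood at 54.1 CPM in IgAN and 55.2 CPM in Control mesangial-like cells, in 17 of 115 and 7 of 51 cells. Its IgAN plates had 54.0, 23.2, 114, 91.4, 7.23 and 15.1 CPM, against 25.2, 107, 0 and 41.2 CPM on Control plates, with no separation between the groups. The 5 richest cells held 66.4% of the IgAN and 93.2% of the Control reads of Col5a1.

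Col5a2 (chr1:45374321-45503282, minus strand) encodes the type V alpha 2 chain and lies 24614 bases from Col3a1, on the opposite strand, with 0 protein-coding genes between them. In mesangial-like cells IgAN plates had 77.5, 0.252, 103, 9.77, 107 and 18.4 CPM, and Control plates had 260, 323, 315 (4 cells) and 330 CPM. Every IgAN plate lay below every Control plate. The summed levels were 54.6 CPM (51.8 to 57.4) in IgAN and 304 CPM (295 to 314) in Control, a log2 difference of -2.46, the single call among the members in this class. The spread between plates was wide in IgAN, with an SD of 2.52 on the log2 scale, and narrow in Control.

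The share of cells with Col5a2 differed the same way as its level: 36 of 115 cells of IgAN (31.3%, 23.0 to 40.6) against 29 of 51 of Control (56.9%, 42.2 to 70.7) had 10 CPM or more. With a single read as the limit the shares were 38.3% in IgAN and 62.7% in Control, and after thinning each cell to 50000 reads 26.1% and 56.9%, whereas 9.59% of T or NK cell-like cells had a read. The 5 richest cells held 50.1% of the IgAN and 39.7% of the Control reads. The 5 richest of both groups together were all of Control. Without them IgAN stayed at 54.6 CPM, Control fell to 214 CPM, and the difference of -1.95 still met the rule. In cells that carried no other main class Col5a2 was at 58.9 CPM in 96 IgAN cells and 308 CPM in 49 Control cells. Markers of other classes moved with the group as well: in mesangial-like cells the endothelial list summed to 2432 CPM in IgAN and 1633 CPM in Control and the podocyte list to 723 and 336 CPM, while the mesangial list stood at 11321 and 12813 CPM and the fibroblast list, with 6 of 8 genes found in IgAN and 4 of 8 in Control, at 253 and 222 CPM.

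Col5a2 had a second home in endothelial-like cells, at 12.6 CPM in IgAN and 29.6 CPM in Control. IgAN plates had 17.4, 10.3, 10.5, 9.37, 17.3 and 0.0481 CPM, against 31.9, 41.4, 12.2 and 23.0 CPM on Control plates. The log2 difference of -1.17 passed the limit, but Control plate 321 fell inside the IgAN range, so the gene was not called. Without plate 321 the difference was -1.28 and the groups no longer overlapped. Nor did they overlap without the endothelial-like cluster led by platelet genes (cluster 0, 41 IgAN and 400 Control cells): the other 970 IgAN cells were at 13.2 CPM and the other 215 Control cells at 42.7 CPM, a difference of -1.62 that met the rule, as 1.24% of the genes measured there did in that direction. In smooth muscle or renin cell-like cells Col5a2 was at 123 CPM in both groups.

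**Figure D3:**
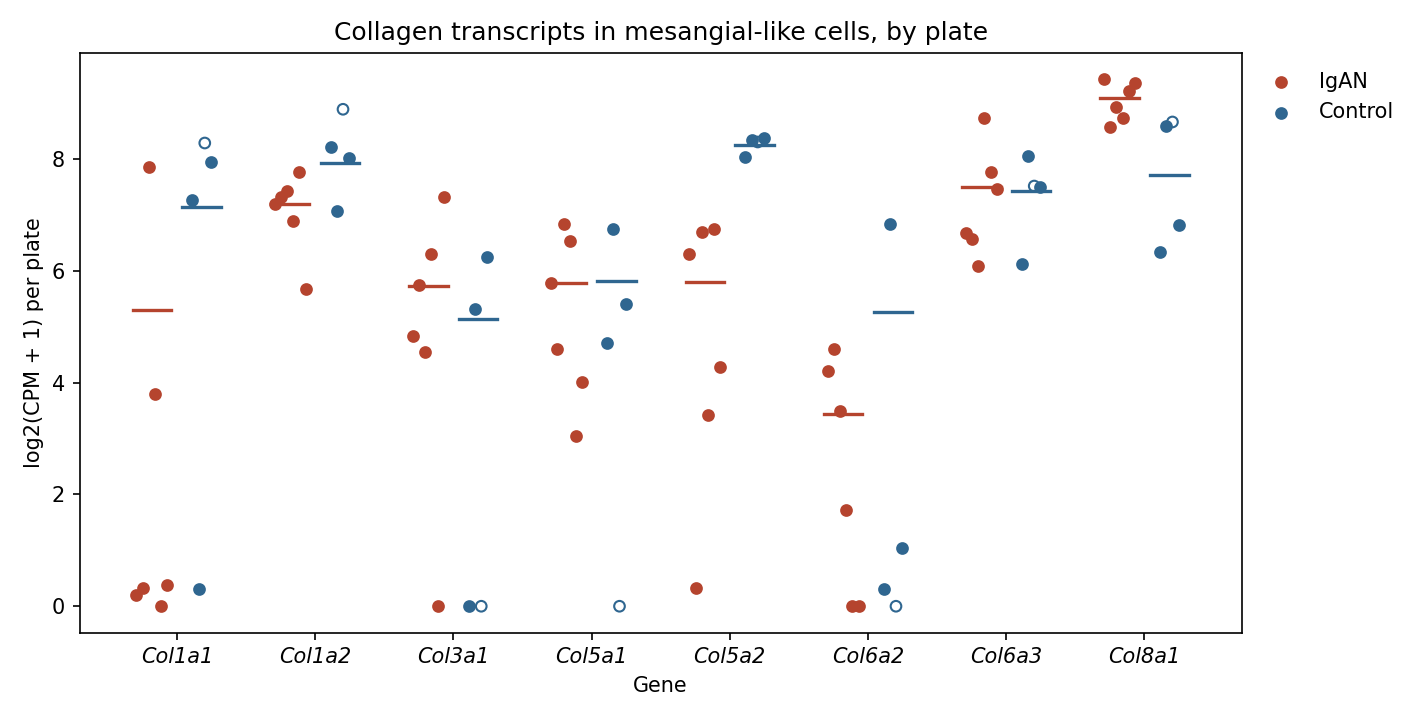
Level of 8 collagen genes in mesangial-like cells (log2 of CPM plus 1), with 6 IgAN plates at the left and 4 Control plates at the right of each gene. Dots are plates, lines are the level summed over the group, and the open circle is Control plate 321 with 4 cells. The Col5a2 dots of IgAN, up to 107 CPM, all lie below those of Control, from 260 CPM, whereas the Col8a1 dots overlap at 378 and 384 CPM.

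The type VI chains stood apart from each other by cell class. Col6a1 (chr10:76708792-76726168, minus strand) and Col6a2 (chr10:76595762-76623630, minus strand) lie 85161 bases apart in the same orientation with 0 protein-coding genes between them, and Col6a3 (chr1:90765923-90843971, minus strand), the longest chain, lies on another chromosome. The bases upstream of the 3 genes are shown because the transcripts fell into different cells. They were taken from RefSeq (GRCm38.p6), read 5′ to 3′ on the minus strand, and kept only where they lie outside the annotated gene: 126 bases at chr10:76726169-76726294 for Col6a1, 250 bases at chr10:76623631-76623880 for Col6a2 and 250 bases at chr1:90843972-90844221 for Col6a3. Capitals mark the 1 motif found.
Col6a1: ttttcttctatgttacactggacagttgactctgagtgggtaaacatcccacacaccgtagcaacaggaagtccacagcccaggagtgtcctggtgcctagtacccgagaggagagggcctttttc
Col6a2: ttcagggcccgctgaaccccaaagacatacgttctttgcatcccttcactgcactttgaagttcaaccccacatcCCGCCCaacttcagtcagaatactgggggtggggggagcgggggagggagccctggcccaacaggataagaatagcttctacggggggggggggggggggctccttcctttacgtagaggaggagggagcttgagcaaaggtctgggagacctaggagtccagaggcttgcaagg
Col6a3: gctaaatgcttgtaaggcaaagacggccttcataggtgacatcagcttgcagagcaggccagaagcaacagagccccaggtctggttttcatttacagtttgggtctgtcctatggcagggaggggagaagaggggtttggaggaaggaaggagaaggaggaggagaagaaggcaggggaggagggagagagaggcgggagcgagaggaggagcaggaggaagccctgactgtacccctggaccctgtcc
The TATA box (TATAAA), the CCAAT box (by those letters) and the GC box (GGGCGG) were searched on both strands. The match in Col6a2 is a GC box on the other strand, 175 to 170 bases before the start, and the other searches gave no match in these windows. Among 32851 windows of 250 bases before RefSeq starts, 12.4% held the TATA box, 33.8% the CCAAT box and 32.7% the GC box. The GC content was 51.6%, 59.2% and 57.2% for Col6a1, Col6a2 and Col6a3, against a median of 52.4% over those windows. The 126 bases of Col6a1 leave out those next to its RefSeq start, which lie inside the annotated gene. Its lack of a match and its GC content are therefore not like for like with the full windows of 250 bases. Of the 10 genes, 8 had such a window in RefSeq.

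In parietal epithelial-like cells Col6a1 was at 793 CPM (780 to 807) in IgAN and 1211 CPM (1186 to 1236) in Control. Its IgAN plates 313, 315, 316, 318, 322 and 325 had 317, 936, 989, 1297, 236 and 229 CPM in 12, 7, 13, 10, 2 and 5 cells, and Control plates 314, 317, 321 and 326 had 1220, 0, 1816 and 1178 CPM in 9, 2, 5 and 8 cells. The plates overlapped through IgAN plate 318 and the 2 cells of Control plate 317. At 10 CPM, 33 of 49 cells of IgAN (67.3%, 52.5 to 80.1) against 19 of 24 of Control (79.2%, 57.8 to 92.9) had the gene.

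Col6a2 followed it closely. It was at 1048 CPM (1033 to 1064) in IgAN and 1888 CPM (1857 to 1919) in Control, in 37 of 49 and 21 of 24 cells. IgAN plates had 389, 1432, 1638, 1233, 159 and 752 CPM, all below the Control plates at 1805, 2128, 2135 and 1853 CPM. No Control plate held 10 of these cells, so no call was made on either gene. In cells that carried no other main class the levels were 720 CPM in IgAN and 1203 CPM in Control for Col6a1 and 1016 and 1672 CPM for Col6a2. The parietal list itself summed to 4666 CPM in IgAN and 4921 CPM in Control, and the fibroblast list to 205 CPM with 4 of 8 genes found and 330 CPM with 5 of 8.

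Col6a3 was near 0 in the same cells, at 0.356 CPM in IgAN and 0.130 CPM in Control. In mesangial-like cells it stood at 179 CPM in IgAN and 172 CPM in Control, in 42 of 115 cells (36.5%, interval 27.7 to 46.0) and 21 of 51 cells (41.2%, 27.6 to 55.8). IgAN plates had 101, 94.1, 67.2, 427, 218 and 176 CPM, and Control plates 68.3, 264, 182 and 180 CPM. The log2 difference was 0.06, with the Control plates inside the IgAN range. Col6a1 in the same cells was at 0.452 CPM in IgAN and 0.534 CPM in Control, and the share of cells with a read, 10.4% and 11.8%, was close to the 8.68% of T or NK cell-like cells.

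Col6a2 in mesangial-like cells was low and uneven, at 9.80 CPM in IgAN and 37.2 CPM in Control, with 93.8% and 99.8% of the reads in 5 cells. IgAN plates had 17.4, 23.2, 10.2, 2.29, 0 and 0 CPM, against 0.238, 113, 0 and 1.06 CPM on Control plates. The log2 difference of -1.82 hung on Control plate 317, and without that plate it was 2.78, with the sign turned round and the plates still overlapping. It was 0.59 without the 5 cells of the class that were richest in Col6a2.

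Single cells showed the same division of the type VI chains. Of 298 cells with at least 10 CPM of any of them, 213 of IgAN and 85 of Control, 73 held Col6a1 and Col6a2 without Col6a3 and 75 held Col6a3 alone. The 298 include 13 T or NK cell-like and 4 B or plasma cell-like cells, the background at this limit. All 3 chains were found together in 1 cell, a smooth muscle or renin cell-like cell of Control. Among 60 parietal epithelial-like cells with a chain, 50 held Col6a1 with Col6a2 and 0 held Col6a3. Among 67 mesangial-like cells with a chain, 56 held Col6a3 alone, 7 held Col6a2 with Col6a3 and 1 held Col6a1 with Col6a2. In parietal epithelial-like cells Col6a1 and Col6a2 were together in 50 cells, which is 96.2% of the 52 cells with Col6a1 and 86.2% of the 58 with Col6a2. Over all cells they were together in 74, 57.8% of the 128 cells with Col6a1 and 43.8% of the 169 with Col6a2.

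Per kilobase of exon, Col6a1 was at 211 and Col6a2 at 158 CPM per kb over both groups of parietal epithelial-like cells, the top levels of any of the 10 genes in any class. The order of these chains depends on the exon lengths used, 4380 bases for Col6a1 and 8326 for Col6a2. By CPM Col6a2 lay above Col6a1 in both groups. Col6a3 was at 14.8 CPM per kb in mesangial-like cells. The cluster of parietal epithelial-like cells was led by Col6a2 and Col6a1, although neither was used to build it, followed by Dkk3, Cpe and the chemokine Cxcl12. That lead is a description of the cluster. Of the marker lists of other cells, the mesangial list summed to 2277 CPM in IgAN and 2356 CPM in Control in these cells and the smooth muscle or renin cell list to 1674 and 1348 CPM, and the part of such cells in the type VI levels was not tested.

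**Figure D4:**
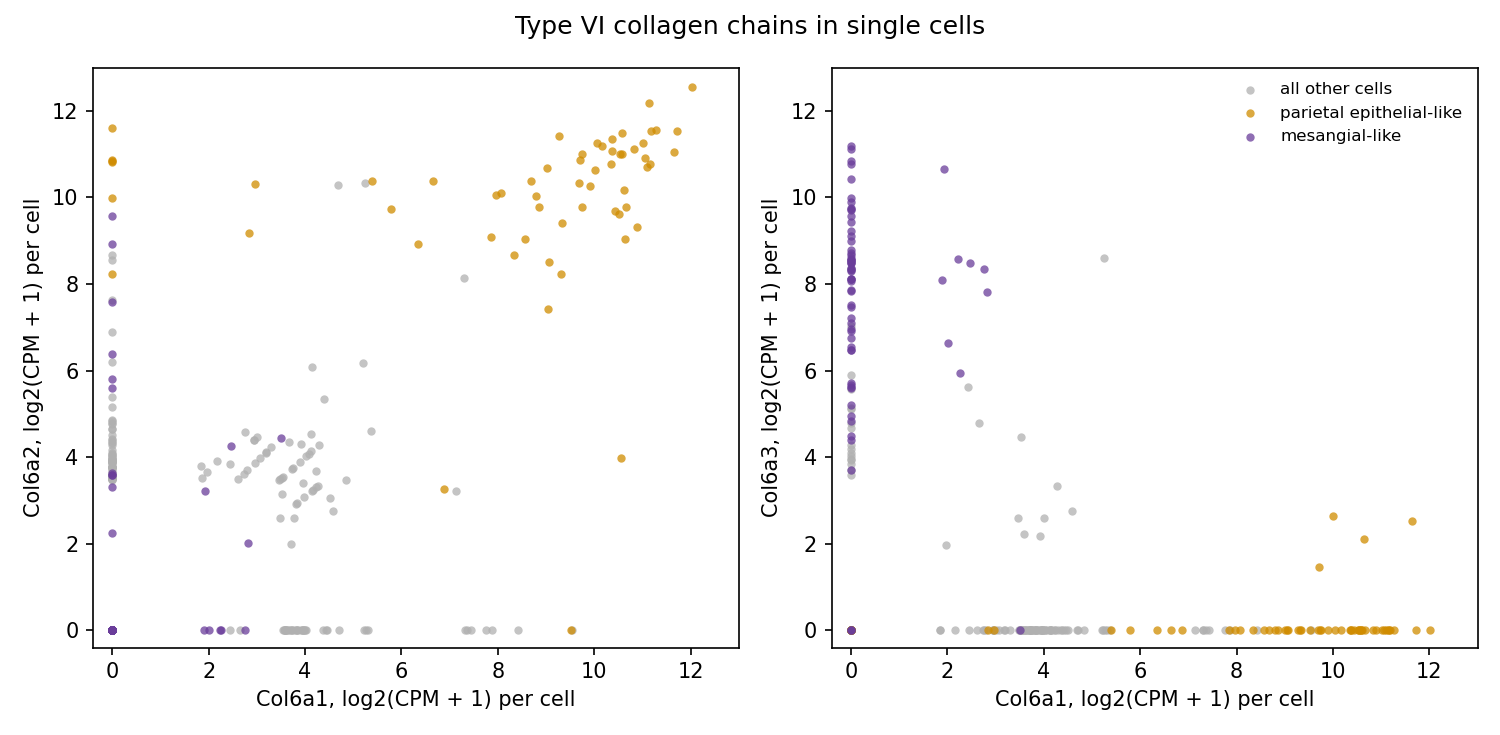
The 298 cells with at least 10 CPM of a type VI chain, with Col6a1 plotted against Col6a2 (left panel) and against Col6a3 (right panel), axes in log2 of CPM plus 1 per cell. Points are cells, orange for parietal epithelial-like, purple for mesangial-like and grey for others. The orange cells lie along the diagonal at the left and on the Col6a1 axis at the right, where the purple cells line the Col6a3 axis.

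Col8a1 (chr16:57624258-57754737, minus strand) encodes a chain of type VIII, a collagen of vessel walls and of the membrane behind the cornea. Per kilobase of exon it was the most abundant of the 10 genes in IgAN mesangial-like cells, at 69.6 CPM per kb, whereas in Control it stood at 26.7 CPM per kb, below Col5a2 at 31.7 CPM per kb. Levels on IgAN plates were 686, 378, 489, 423, 596 and 658 CPM, against 79.7, 384, 404 (4 cells) and 112 CPM on Control plates. Of the plates with 10 cells, 5 of 6 IgAN plates lay above all Control plates, and Control plate 317 at 384 CPM lay just above IgAN plate 315 at 378 CPM. The summed levels were 545 CPM (536 to 554) in IgAN and 209 CPM (201 to 217) in Control, a log2 difference of 1.38 that was not called because of that overlap.

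More IgAN than Control mesangial-like cells held Col8a1: 83 of 115 (72.2%, interval 63.0 to 80.1) against 18 of 51 (35.3%, 22.4 to 49.9) at 10 CPM. Those intervals treat cells as independent and leave out the spread between plates. With 1 read as the limit the shares were 75.7% in IgAN and 39.2% in Control, after thinning 69.6% and 33.3%, and 8.68% of T or NK cell-like cells had a read. The median cell was at 156 CPM in IgAN and 0 in Control. The 5 richest cells held 27.4% of the IgAN and 74.6% of the Control reads. Without the 5 richest of both groups together, 4 of IgAN and 1 of Control, the difference was 1.62 and met the size rule. It also met the rule without plate 315 (1.45). Without plate 317 (2.13) it met the limits of size and overlap, but only 2 Control plates with 10 cells were left, under the 3 asked for. Plates 315 and 317 alone made the overlap, so leaving out either was bound to separate the groups. The share of all genes called in such settings was not computed. The rule was met too as a mean of single-cell CPM (1.68) and without cells that carried another main class. That last setting left only 3 of the 6 IgAN plates with 10 cells. In those remaining cells Col8a1 was at 571 CPM in IgAN and 216 CPM in Control. In mesangial-like cells it was not called in the other settings, which covered clustering, scaling, filters, plate weights and each other plate left out.

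Outside the mesangial-like class Col8a1 was found at lower levels in several classes. Smooth muscle or renin cell-like cells had 59.1 CPM in IgAN, from 388 reads in 21 cells, and 0 reads in the 11 Control cells, for which the interval reaches 1.10 CPM. Proximal tubule-like cells had 21.2 CPM in IgAN and 14.4 CPM in Control, with IgAN plate 325 at 64.6 CPM. Of the 698 IgAN reads there, 526 lay in 35 cells with markers of another main class, and cells without such markers were at 7.78 CPM in IgAN and 14.4 CPM in Control, the other way round. Macrophage or dendritic-like cells had 7.07 CPM in IgAN and 0.310 CPM in Control, and 317 of the 352 IgAN reads lay in cells with markers of another main class. Among endothelial-like cells it was concentrated in cluster 4, which is led by the elastic fibre genes Fbln5 and Fbln2, at 46.2 CPM in IgAN and 16.9 CPM in Control, while the other large clusters stayed below 5 CPM.

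Col15a1 (chr4:47208161-47313167, plus strand) encodes the chain of a collagen that anchors capillaries and muscle fibres to the tissue around them. An antisense gene, Gm12426, overlaps it, and since the strand setting of the counting is not given in the sources used here, reads of the pair cannot be told apart. Col1a2, Col3a1, Col5a2 and Col6a3 each overlap 1 annotated gene as well, and Col5a1 overlaps 2. In endothelial-like cells Col15a1 was at 73.1 CPM (72.1 to 74.2) in IgAN and 95.2 CPM (93.8 to 96.7) in Control, with 298 of 1011 cells (29.5%, interval 26.7 to 32.4) and 199 of 615 cells (32.4%, 28.7 to 36.2) at 10 CPM. IgAN plates had 73.4, 47.6, 183, 65.8, 42.7 and 33.8 CPM, against 54.6, 111, 72.7 and 121 CPM on Control plates. Plate 316 was the highest of all, the plates overlapped, and the log2 difference was -0.38. Without the cluster led by platelet genes the levels were 74.3 CPM in IgAN and 73.3 CPM in Control, a difference of 0.02.

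The endothelial-like clusters were shared unevenly between the groups. Cluster 0 held 41 IgAN and 400 Control cells, cluster 1 347 and 84, cluster 2 278 and 11, cluster 3 232 and 2, and cluster 4 108 and 111. Cluster 0 was led by Fgf1 and by platelet genes such as Ppbp and Itga2b, and cluster 3 by genes that include the chemokine Cxcl10 and the adhesion receptor Sele. Platelets had no marker list here, and their part in the levels of cluster 0 was not tested. In cluster 4 the endothelial markers averaged -0.01 (log2) against all other cells. Col15a1 was at 47.8 CPM in IgAN and 108 CPM in Control in cluster 0, at 114 and 145 CPM in cluster 1, at 57.7 and 167 CPM in cluster 2, and at 43.5 and 4.29 CPM in cluster 4. In cluster 3 the 232 IgAN cells were at 59.3 CPM.

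The direction of the difference in Col15a1 thus was not the same in every cluster. It was lower in IgAN in clusters 0, 1 and 2 and higher in IgAN in cluster 4, where IgAN plates had 3.55, 175, 83.6, 31.8, 0.346 and 6.47 CPM and Control plates 6.95, 1.42, 0.495 and 5.86 CPM, with overlap. Over both groups Col15a1 and Col8a1 differed between clusters: Col15a1 was at 102, 122, 60.7, 58.8 and 22.4 CPM in clusters 0 to 4, whereas Col8a1 reached 30.4 CPM in cluster 4. Col5a2 was at 0.339 CPM in IgAN and 22.1 CPM in Control in cluster 0, at 8.55 and 37.3 CPM in cluster 1, at 16.9 and 77.2 CPM in cluster 2 and at 21.0 and 47.9 CPM in cluster 4, lower in IgAN in each of these 4 clusters. In cluster 4 the plates overlapped for Col5a2, with IgAN plate 313 at 61.5 CPM and Control plates 314, 317, 321 and 326 at 41.4, 49.5, 120 and 35.8 CPM. These levels rest on clusters that are each mostly of 1 group, except cluster 4.

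**Figure D5:**
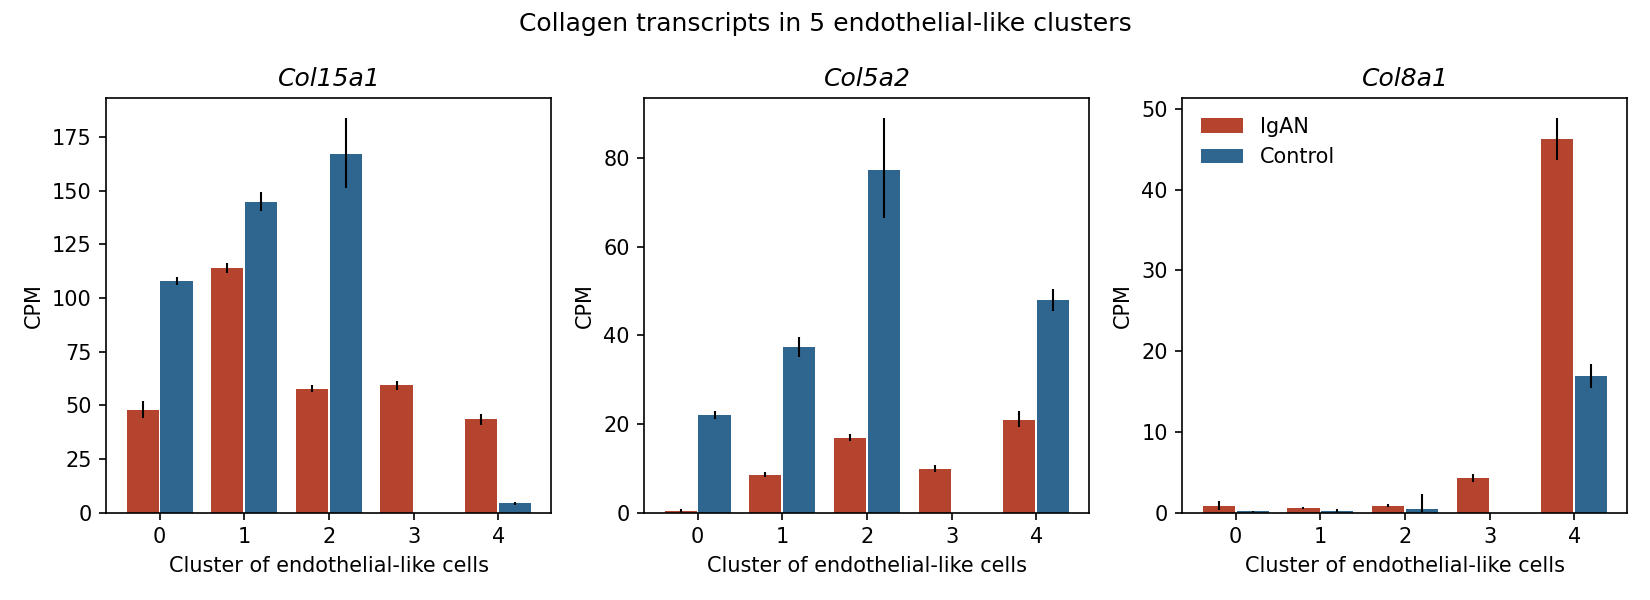
Level (CPM) of Col15a1, Col5a2 and Col8a1 in the 5 large clusters of endothelial-like cells, IgAN bars at the left of Control bars, with exact Poisson 95% intervals that cover counting error only. A group with under 10 cells in a cluster (Control in cluster 3) is left out. Col15a1 is spread over clusters 0 to 3, whereas Col8a1 is high in cluster 4, and the Col5a2 bars of IgAN lie below those of Control in clusters 0, 1, 2 and 4.

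In proximal tubule-like cells Col15a1 was called higher in IgAN, at 12.1 CPM (11.0 to 13.4, 400 reads), against 0.480 CPM in Control (9 reads), a log2 difference of 3.15. IgAN plates 315, 316, 318 and 325 had 12.2, 1.38, 2.06 and 25.5 CPM, and Control plates 314, 317 and 321 had 1.03, 0.686 and 0.111 CPM, so the lowest IgAN plate lay little above the highest Control plate. Endothelial markers moved with it: the endothelial list summed to 3792 CPM in IgAN and 223 CPM in Control, and 35 of 132 IgAN and 0 of 85 Control cells carried those markers at 25% of the endothelial-like level. Cells with markers of another main class held 359 of the 400 IgAN reads, at 33.2 CPM. Cells without them were at 1.85 CPM in IgAN and 0.480 CPM in Control, a log2 difference of 0.95 that was not called. Nor was Col15a1 called without the 5 richest cells, all of IgAN, when it was at 4.87 CPM in IgAN and 0.480 CPM in Control (1.99).

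Macrophage or dendritic-like cells gave a like picture. Col15a1 was at 12.3 CPM in IgAN and 3.41 CPM in Control, with IgAN plate 318 at 59.3 CPM and the plates overlapping. The 31 IgAN cells with markers of another main class were at 74.6 CPM, and the cells without such markers were at 2.35 CPM in IgAN and 3.15 CPM in Control. Parietal epithelial-like cells had 53.6 CPM of Col15a1 in IgAN and 19.3 CPM in Control, but 27.5 and 24.5 CPM without cells that carried another main class.

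Per cell the members were few. In mesangial-like cells the median number of the 10 genes at 10 CPM was 2 in both groups and the highest 5 in both. In parietal epithelial-like cells the median was 2 in IgAN and 3 in Control. In endothelial-like cells 596 of 1011 IgAN cells (59.0%) and 366 of 615 Control cells (59.5%) had none.

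Across 20 levels, 10 classes in each of the groups, log2 levels of the chain pairs gave Pearson's r as a description: 0.90 for Col6a1 with Col6a2, -0.02 for Col6a1 with Col6a3, 0.32 for Col6a2 with Col6a3, 0.87 for Col1a1 with Col1a2, 0.49 for Col5a1 with Col5a2, 0.80 for Col5a2 with Col6a3 and 0.75 for Col6a3 with Col8a1. The levels of a class in the groups are not independent and share their class and plates. By the same measure, among 14260 other genes, those most like Col6a3 were Ccdc42 (0.99), the mesenchymal transcription factor Twist1 (0.98) and Mannr (0.97). Col6a1 was most like Tmem100 (0.97) and Clstn2 (0.94), and Col6a2 most like the adhesion protein Cdh2 (0.95), Chrna7 (0.93) and the collagen-binding proteoglycan Fmod (0.93).

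For Col1a1 the most alike were Mustn1 (0.93), Foxs1 and Podxl2 (both 0.92), and for Col1a2 Foxd2, Mark1 and the protocadherin Pcdh18 (all 0.94). Col3a1 was most like Smarca1, C1s2.1 and RP23-256O22.3 (all 0.95), and Col5a1 like Pygo1, the small proteoglycan Dcn (both 0.89) and Angpt4 (0.88). Col5a2 followed the Wnt modulator Dkk2 (0.93) and Nr2f1 (0.92), Col8a1 followed Ido2 (0.92), Fsd1l and Kcnq5 (both 0.89), and Col15a1 followed Ptpru (0.92), Fbln2 and the receptor Kit (both 0.90).

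The machinery that makes and cross-links collagen was abundant in mesangial-like cells and gave no call: 0 of 21 measured genes of 30 were higher or lower in IgAN, with a median log2 difference of -0.21. The most abundant were Sparc, a collagen-binding protein, at 3693 CPM in IgAN and 4096 CPM in Control, P4hb, a subunit of the prolyl hydroxylase, at 759 and 985 CPM, Pcolce, which helps to cleave procollagen, at 503 and 633 CPM, and Ppib, a proline isomerase, at 467 and 539 CPM. Of the genes for breakdown, inhibitors and receptors 0 of 10 measured of 18 were called, with a median of -0.05. The gelatinase Mmp2 stood at 1934 CPM in IgAN and 1615 CPM in Control, the metalloproteinase inhibitor Timp3 at 1527 and 823 CPM, the integrin chain Itgb1 at 1261 and 1335 CPM and Timp2 at 605 and 656 CPM.

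Among 28 other collagen chains 5 were measured in mesangial-like cells and 0 were called. All 5 differences were positive, with a median of 1.82, against 0.02 for all measured genes. The share of positive differences among all genes was not computed. The fibril-associated Col12a1 was at 217 CPM in IgAN and 161 CPM in Control, Col14a1 at 67.7 and 11.7 CPM (log2 2.44), Col26a1 at 54.5 and 45.3 CPM and the basement membrane chain Col18a1 at 39.0 and 10.3 CPM. In endothelial-like cells 0 of 19, 0 of 8 and 0 of 1 measured genes of the 3 lists were called, with medians of -0.07, -0.02 and -0.48, the last being Col18a1 at 192 CPM in IgAN and 268 CPM in Control.

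In proximal tubule-like cells, where endothelial markers differed as given above, Sparc was called higher in IgAN (1067 against 86.6 CPM in Control) and P3h1, a prolyl hydroxylase, lower (14.7 against 39.2 CPM), of 18 measured processing genes. Mmp2 (18.2 in IgAN against 1.76 CPM in Control) and Mmp14, a membrane-bound collagenase (10.1 against 1.01 CPM), were called higher of 7 measured breakdown genes, and Col18a1 (88.7 against 40.5 CPM) among the other chains. Mmp2 and Mmp14 reached 10 CPM in IgAN alone. Among all genes measured in this class 6.39% were higher and 2.11% lower. In T or NK cell-like cells Mmp2 was the only list gene called, higher in IgAN (18.0 against 1.44 CPM in Control). There 0.447% of all measured genes were higher.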

How the data were processed

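The deposited table holds counts, whole numbers of reads per gene and cell, which the authors did not normalize. TopHat2 2.1.1, Subread 1.4.6-p5, featureCounts, SAMtools 0.1.18 and the mouse build GRCm38 (mm10) are listed in the submitters' processing notes. Not given in the sources used here are the annotation, the strand setting and how duplicate reads were handled. Without molecular identifiers, reads are not independent molecules, so intervals cover counting error only.

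All 3143 cells passed the minimums of 10000 reads and 500 genes, the table summed to 816735155 reads with a median of 234207 per cell, and 0 cells were identical to another. The highest value of any gene in a cell was 3974 reads and that of a member 1931 reads (Col6a2). Reads were scaled to 100000 per cell and log transformed, and 2000 variable genes without the 10 collagens, 30 principal components and 15 neighbours gave Leiden clusters at resolution 1 (scanpy 1.11.5, leidenalg 0.10.2, scikit-learn 1.9.0). A cluster took the class with the highest mean log2 fold of its markers, among classes with 3 markers found in 25% of its cells. No doublet caller was run. Instead, levels were recomputed without cells whose summed markers of another main class (podocyte, mesangial, endothelial) reached 25% of its median. Mapped to GRCm38, positions came from GENCODE vM21, which may not be the annotation behind the counts.

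Named genes were the 10 members, the 3 genes most like each by Pearson's r, and, of each list, the genes called and the 4 most abundant. Gene models named by a Gm number or ending in Rik were left out of the most alike, but not those named by a clone, and 2 of the most alike are not reported here. Members and lists were chosen with earlier results of these data known. Alternatives covered clustering, scaling, added CPM, filters, plate weights, thinning and each plate left out. Python 3.11.15, numpy 2.4.6, pandas 2.3.3, scipy 1.17.1, anndata 0.12.19 and matplotlib 3.10.9 were used.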

Additional observations from a re-analysis of the deposited data

Results flagged for a closer look

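Of 16 sets of plates checked, 4 held 1 plate far from the rest of its group, by the gap to its nearest neighbour as a share of the range of the group. Chance marks about 1 in 20 groups of normally spread values, but plate levels are skewed and the sets share plates, so the number of sets is not evidence of more than chance. In mesangial-like cells IgAN plate 316 had 231.0 CPM of Col1a1, against at most 12.9 CPM on the other IgAN plates. In endothelial-like cells the same plate had 183.0 CPM of Col15a1, against at most 73.4 CPM on the other IgAN plates. In proximal tubule-like cells IgAN plate 325 had 64.6 CPM of Col8a1. In macrophage or dendritic-like cells IgAN plate 318 had 59.3 CPM of Col15a1.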

How the results depend on the processing

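Col5a2 in mesangial-like cells stayed lower in IgAN, at -3.62 to -1.95 over 25 settings. The count of members higher in IgAN mesangial-like cells was 1 in place of 0, by Col8a1, without cells carrying another main class and as a mean of per-cell CPM, and 0 to 1 with a plate left out (1 without 315 or 317). The count lower there was 1 to 2 with a plate left out, when Col1a2 joined without plate 317. In endothelial-like cells it was 0 to 1, by Col5a2 without plate 321, and 1 in place of 0 without the cluster led by platelet genes. Plates 315, 317 and 321 were the ones that overlapped for these genes, so leaving them out separated the plates by construction. In proximal tubule-like cells the count higher was 0 in place of 1 at resolution 2, with a larger set of variable genes, without cells carrying another main class, with a 50 CPM filter and with plates of at least 5 cells. It was 1 to 2 with a plate left out: Col8a1 (4.20) joined without plate 321, and without plate 325 Col15a1 was lost and Col6a2 (2.86) was called. Col15a1 there ranged from 0.95 to 3.64 over 24 settings. Col5a2 was highest in smooth muscle or renin cell-like in place of mesangial-like cells at resolution 2, as a mean of per-cell CPM and without plate 317, 322 or 326. Col1a2 was highest in parietal epithelial-like cells without cells carrying another main class. That setting left 1 IgAN and 1 Control smooth muscle or renin cell-like cell, too few for that class to be ranked. The cause of the other shifts was not tested. Scaling by ratios moved the median of all genes in proximal tubule-like cells from 0.31 to 0.22. Among values not called, Col6a2 in mesangial-like cells turned to 2.78 without plate 317. Leaving out the 5 richest cells ended the call on Col15a1 in proximal tubule-like cells (1.99). That setting and leaving out the platelet-led cluster were added after seeing the data. No paired analysis was possible because no plate is shared between the groups, and replicate numbers only count cells in accession order and pair none. With 51 Control mesangial-like and 24 Control parietal epithelial-like cells, differences carried by few cells were not resolved.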
